A study of Homo sapiens with 29 samples.

Results

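The comparison described here set C4-2 prostate cancer cells given NU7441 and enzalutamide together (NU7441+Enza, 3 libraries) against C4-2 cells given enzalutamide alone (Enza, 3 libraries). These 6 libraries are all libraries of the 2 treatments among the 29 of the series, and they were chosen by their labels alone. Both groups received enzalutamide at 1 µM for 24 h, in medium that the labels call hormone proficient, and the NU7441+Enza group also received NU7441 at 1 µM for the same time. C4-2 is an established, castration-resistant line derived from LNCaP, so the results concern 1 line in culture. Where the effect of NU7441 without enzalutamide is given, it comes from 3 libraries with NU7441 at 1 µM for 24 h and 3 untreated libraries (Ctrl), whose time the labels do not give. Nothing in the labels says that the replicates were separate cultures, so p-values measure only the spread between libraries within groups, which may be technical. That spread was estimated in 1 fit over all 24 C4-2 libraries of the series, not over these 6 alone.

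NU7441 is an inhibitor of DNA-PK, the kinase whose catalytic subunit is encoded by PRKDC. DNA-PK is recruited by the Ku proteins to broken DNA ends and acts in non-homologous end joining, and it has also been described as a partner of transcription factors. Androgens drive luminal prostate genes such as KLK3, which encodes prostate-specific antigen, and enzalutamide is an antiandrogen used against prostate cancer. The question put by the design is what an inhibitor of DNA-PK changes in cells that also receive an antiandrogen.

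Total counts per library were 30491226 to 36422789 in Enza and 35490901 to 42378414 in NU7441+Enza. The 10 luminal prostate markers together reached 3104 to 3546 CPM (counts scaled to a common TMM-adjusted library size) in Enza and 3560 to 3585 in NU7441+Enza, and none was at 0. The 6 basal markers summed to 2.91 to 4.75 and 3.26 to 3.96 CPM, with KRT5 at 0 in both groups, and the 12 neuroendocrine markers to 6.77 to 9.27 and 7.38 to 8.14 CPM. The 15 measured stromal, immune and endothelial markers summed to 8.64 to 19.4 CPM in Enza and 8.23 to 9.34 in NU7441+Enza, with CD3E at 0 in both. One Enza library, Enza 1, stood apart from its group: its correlation of log2 CPM with the other 2 was 0.981 and 0.979, against 0.993 between those 2. In Enza 1, 156 genes lay over 2-fold (on log2(CPM + 1)) outside the range of the other 5 libraries, against 0 to 2 genes for each of the others. Enza 3 had the largest share of mitochondrial counts, 6.12%, against 0.964% and 3.52% in Enza 1 and 2 and 1.37% to 1.98% in NU7441+Enza. For the genes named by rule, a value that Enza 1 moved by over 1.5 times is given below with and without it.

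Adding NU7441 to enzalutamide changed few genes past the threshold, and those it changed moved by modest amounts. Of 22860 genes tested, 87 (0.381%) had an adjusted p under 0.05 in edgeR's quasi-likelihood test, which is what "called" means here. Of these, 51 genes (0.223%) were higher and 36 (0.157%) lower in NU7441+Enza. The median log2 fold change was 0.63 among the higher genes (range 0.39 to 1.24) and -0.73 among the lower ones (range -0.45 to -1.79). Only 2 of the higher and 7 of the lower genes changed by at least 2-fold. Protein-coding genes made up 77 of the 87. The median log2 fold change of all genes tested was -0.01, and 3573 genes (15.6%) had an unadjusted p under 0.05. The 3 NU7441+Enza libraries lay above all Enza libraries for 2371 genes (10.4%) and below them for 2182 (9.55%).

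**Figure D1:**
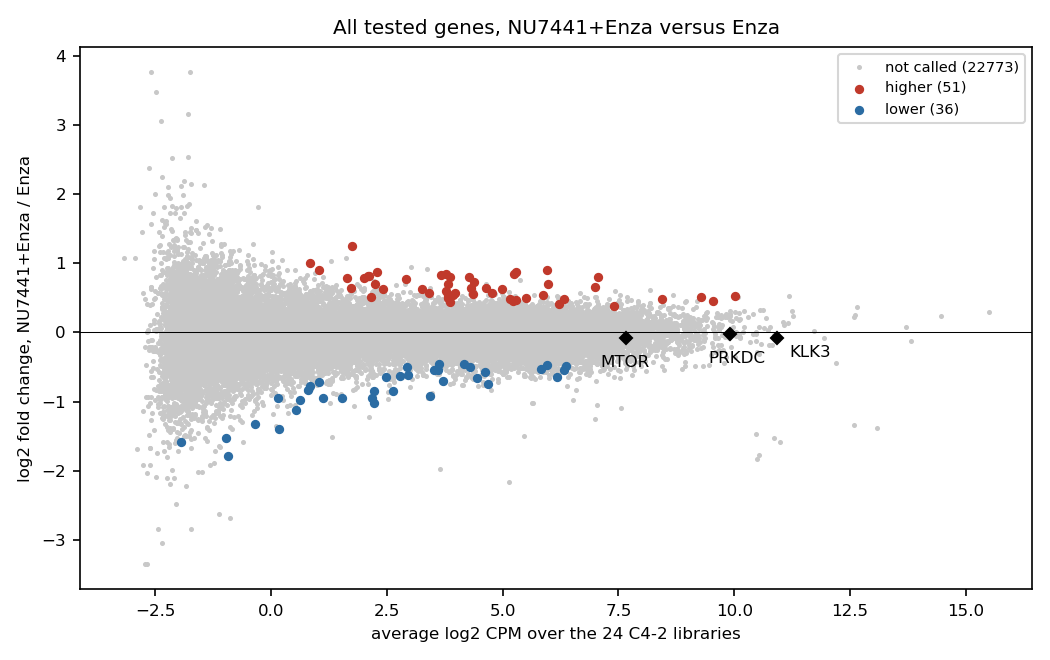
Log2 fold change of NU7441+Enza over Enza (vertical axis) against the average log2 CPM over the 24 C4-2 libraries (horizontal axis) for each gene tested. The 51 called higher genes are red, the 36 called lower genes blue, the 22773 others grey, and diamonds mark PRKDC, MTOR and KLK3, all near 0 and not called.

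The number of called genes depended strongly on single libraries, and among the other C4-2 libraries in the fit CC-115+Enza 1 also stood apart from its group. It was 39 without Enza 1, 598 (2.59%) without Enza 1 and CC-115+Enza 1, 653 without Enza 2 and 1173 without Enza 3, and 0, 12 and 12 without NU7441+Enza 1, 2 and 3. A fit to the 6 libraries alone called 0 genes (1753 at an unadjusted p under 0.05), and a fit to those libraries without Enza 1 called 1714 of 20599 (8.32%), among them all 87. In every alternative run, each of the 87 genes that was tested kept its direction and an unadjusted p under 0.05. These runs reuse the libraries by which the 87 were picked, so this is not a separate check. Of the 87, 27 were still called without Enza 1, and 0, 11 and 12 without NU7441+Enza 1, 2 and 3. The genes below are given with their values in each library for that reason.

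The largest rises among the well-measured protein-coding genes were in KLHL24, CAMK2B, ATP8A1, HTRA1 and SOCS2, with log2 fold changes between 0.84 and 0.90. KLHL24 encodes a substrate adaptor of a cullin-3 ubiquitin ligase. Its level was 16.4, 18.2 and 17.2 CPM in Enza 1, 2 and 3 and 36.1, 31.1 and 29.5 CPM in NU7441+Enza 1, 2 and 3. The groups did not overlap, and the log2 fold change was 0.90 ± 0.19 (SE, n = 3 and 3; adjusted p = 0.037). ATP8A1, a flippase that moves aminophospholipids to the inner face of membranes, was at 9.71, 10.4 and 11.6 CPM in Enza and 19.3, 19.9 and 18.7 CPM with NU7441 added. Its log2 fold change was 0.87 ± 0.15 (adjusted p = 0.00714). HTRA1, a secreted serine protease, went from 4.75, 5.16 and 4.87 CPM to 9.50, 8.42 and 9.09 CPM, a log2 fold change of 0.87 ± 0.14 (adjusted p = 0.00658). In both genes the spread within each group was small beside the gap between the groups. CAMK2B, the beta subunit of a calcium/calmodulin-dependent kinase, was less even in Enza, at 2.21, 1.20 and 1.62 CPM, and stood at 3.19, 2.86 and 3.26 CPM in NU7441+Enza (log2 fold change 0.90 ± 0.20, adjusted p = 0.0427).

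SOCS2, an inhibitor of cytokine and growth hormone signalling, was at 4.35, 3.93 and 3.56 CPM in Enza and 7.19, 6.87 and 7.19 CPM in NU7441+Enza. Its log2 fold change was 0.84 ± 0.12 (adjusted p = 0.00602), with all 3 libraries of each group close together. TP53INP1, a p53-inducible gene that acts in autophagy and stress responses, was at 76.8, 111 and 116 CPM in Enza and 190, 171 and 170 CPM with NU7441 (log2 fold change 0.81 ± 0.14, adjusted p = 0.0108). Here Enza 1 was the lowest library, and without it the log2 fold change was 0.64. The other 6 of the 12 largest rises were CFAP69 (a cilium and flagellum gene), SLC35D2 (a nucleotide sugar transporter), RBKS (ribokinase), ZBTB20 (a zinc-finger transcriptional repressor), SLC2A12 (the glucose transporter GLUT12) and YPEL1. Their log2 fold changes lay between 0.79 and 0.84. ZBTB20 was at 2.99, 4.53 and 4.60 CPM in Enza and 7.41, 7.0 and 6.85 CPM in NU7441+Enza. SLC2A12 spread the most within Enza, at 3.40, 6.41 and 4.18 CPM, against 9.28, 8.10 and 7.11 CPM.

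The largest falls among such genes were in GC, UGT2B11, ACTA2, TLNRD1, DNAH8 and CHAC1. GC encodes the vitamin D-binding protein. It was at 14.4, 20.2 and 18.9 CPM in Enza and 8.01, 9.49 and 8.75 CPM in NU7441+Enza, so that the highest combination library was below the lowest Enza library. The log2 fold change was -1.03 ± 0.16 (adjusted p = 0.00602). ACTA2, the smooth muscle alpha-actin, was at 4.04, 4.36 and 4.22 CPM in Enza and 2.14, 2.19 and 2.21 CPM in NU7441+Enza. Within each group the libraries lay close together, and the log2 fold change was -0.95 ± 0.15 (adjusted p = 0.00602). UGT2B11, a UDP-glucuronosyltransferase of the family that conjugates androgens, was at 3.6, 4.08 and 3.39 CPM against 2.12, 1.47 and 2.12 CPM (log2 fold change -0.95 ± 0.17, adjusted p = 0.0108). The UGT2B genes are near-identical copies, so reads may be shared among them and this value is uncertain.

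CLU encodes clusterin, a secreted chaperone. It was at 52.4, 45.1 and 40.4 CPM in Enza and 25.7, 29.7 and 26.7 CPM in NU7441+Enza, a log2 fold change of -0.75 ± 0.12 (adjusted p = 0.00602). SLC16A10, a transporter of aromatic amino acids, fell from 41.6, 43.2 and 40.3 CPM to 24.0, 27.3 and 28.1 CPM (log2 fold change -0.66 ± 0.12, adjusted p = 0.0173). ABCG1, a cholesterol exporter, was at 19.1, 13.0 and 14 CPM against 8.77, 9.92 and 9.74 CPM (log2 fold change -0.70 ± 0.14, adjusted p = 0.0258). In TLNRD1, an actin-bundling protein, Enza 1 was far above the other 2 Enza libraries, at 23.7 CPM against 12.5 and 13.8, with 8.82, 7.83 and 9.68 CPM in NU7441+Enza. Its log2 fold change of -0.92 became -0.58 without Enza 1 and CC-115+Enza 1. DNAH8 (an axonemal dynein), CYP1B1 (a cytochrome P450) and CAPN5 (a calpain) completed the 12 largest falls, with log2 fold changes of -0.84, -0.72 and -0.64. Of the 24 genes with the largest changes, 10 overlap another tested gene, 9 of them one on the opposite strand. ACTA2 overlaps FAS, and ZBTB20, SOCS2 and CYP1B1 overlap their antisense transcripts. The library kit kept strand, but whether the counting used it is not given in the sources used here, so reads of such pairs may not be told apart.

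**Figure D2:**
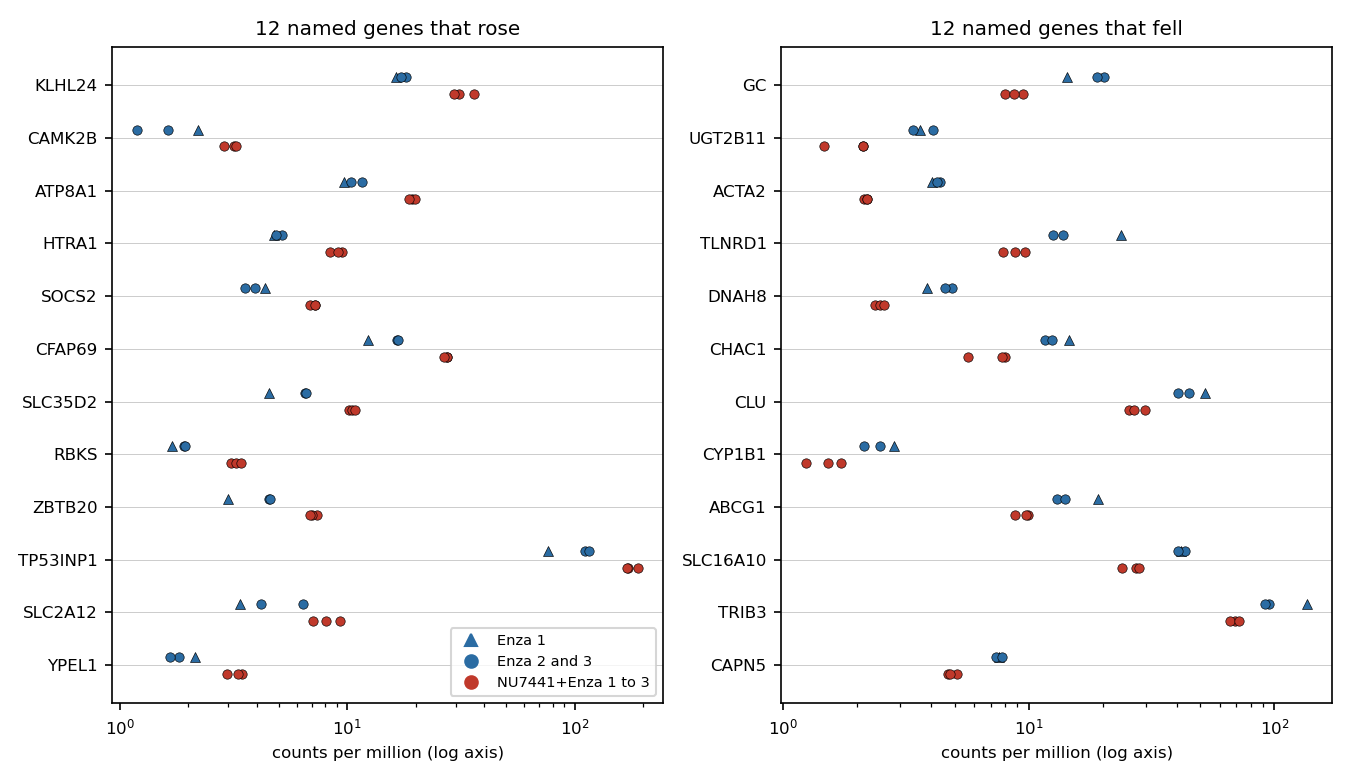
CPM (log axis) of the 12 genes with the largest rises (left) and the 12 with the largest falls (right) in each of the 6 libraries, with Enza in blue, NU7441+Enza in red and Enza 1 as a triangle. In every row the red points lie on 1 side of all blue points, and for TLNRD1 and TRIB3 the triangle lies far above the other blue points.

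Among the gene lists, targets of ATF4 held the most calls. ATF4 is the transcription factor of the integrated stress response, and it is translated when amino acids are short or the endoplasmic reticulum is stressed. Many of its targets supply, transport or sense amino acids, and the list also holds members with other roles. Of 26 members tested, 4 fell and 0 rose (0.157% of all genes fell), and the median log2 fold change of the list was -0.25. Negative values were found in 23 of the 26, and 13 were lower in every NU7441+Enza library than in every Enza library, against 9.55% of all genes. The members that fell were CHAC1, TRIB3, SESN2 and STC2. CHAC1, which degrades glutathione, was at 14.6, 11.6 and 12.4 CPM in Enza and 8.04, 7.80 and 5.66 CPM in NU7441+Enza (log2 fold change -0.84 ± 0.15, adjusted p = 0.0115). TRIB3, a pseudokinase that restrains ATF4, was at 136, 94.8 and 91.9 CPM against 69.0, 66.0 and 71.7 CPM (log2 fold change -0.64 ± 0.13, adjusted p = 0.0281). In TRIB3, as in SESN2 and STC2, Enza 1 was the highest library by a wide margin. SESN2, a leucine sensor upstream of mTORC1, was at 34.2, 24.2 and 24.8 CPM against 19.9, 20.1 and 18.9 CPM. STC2, a secreted glycoprotein, was at 127, 95.0 and 99.2 CPM against 75.7, 76.7 and 76.1 CPM. Their log2 fold changes were -0.50 ± 0.11 and -0.49 ± 0.10 (adjusted p = 0.0496 and 0.0267), and that of SESN2 became -0.32 without Enza 1 and CC-115+Enza 1. Enzalutamide alone against Ctrl, which shares the Enza libraries, called 11 of the 26 higher and 1 lower (median 0.31). There 2137 of 22860 genes were called higher and 6.75% lower. NU7441 against Ctrl called 1 of the 26 lower and 0 higher (median -0.13), beside 1.11% of all genes lower. Without Enza 1 and CC-115+Enza 1 it called 10 lower, beside 2604 of 23108 genes.

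In NU7441+Enza against Enza, members with values near or above 0 were also found. ASNS, the asparagine synthetase, had a log2 fold change of 0.15 ± 0.11, ATF3 one of 0.13 ± 0.14 and ATF4 itself one of -0.25 ± 0.17, none of them called. With Enza 1 left out, the median of the list was -0.14 and CHAC1 was the 1 member called (0.0678% of all genes fell). The count of members that fell was 6 without Enza 2 (2.07% of all genes) and 7 without Enza 3 (3.77%). It was 0, 1 and 0 without NU7441+Enza 1, 2 and 3 (0%, 0.0255% and 0.0254%). In the fit to the other 5 libraries of the 2 groups, 11 members fell and 0 rose, beside 714 of 20599 genes (3.47%) that fell. The promoter of CHAC1, the ATF4 target with the largest fall, is shown for the letters of the ATF4 response element in it. The 250 bases before its RefSeq start (GRCh38.p14, chr15:40953221-40953470, plus strand) are given with the match to that element in capitals.
CHAC1: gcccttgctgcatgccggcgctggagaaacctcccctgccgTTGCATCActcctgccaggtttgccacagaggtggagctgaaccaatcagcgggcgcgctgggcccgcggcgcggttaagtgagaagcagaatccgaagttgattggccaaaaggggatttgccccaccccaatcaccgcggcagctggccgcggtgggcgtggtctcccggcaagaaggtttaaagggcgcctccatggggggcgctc
The element searched was TGATGNAA on both strands. It lies on the minus strand here, 209 to 202 bases before the start. The same search found it in 1104 of 35116 promoter windows of this length (3.14%), in 3 of the 21 list members with a promoter sequence (CHAC1, ASNS and ATF3) and in 1 of the 4 that fell. The 3.14% is a share of windows, whereas a list member counted if any of its windows held the element, so these are unlike units. ASNS and ATF3 were not called.

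The transcript of the drug target did not pass the test. PRKDC was at 1012, 941 and 1060 CPM in Enza and 932, 986 and 1051 CPM in NU7441+Enza (log2 fold change -0.02 ± 0.10, adjusted p = 0.948). MTOR, the related kinase of growth control, was at 172, 149 and 150 CPM against 145, 151 and 148 CPM (log2 fold change -0.08 ± 0.10, adjusted p = 0.722), and without Enza 1 it had -0.02. NU7441 acts on the protein's kinase activity, so these levels do not check the inhibition. None of the 15 genes of end joining and none of the 20 of homologous recombination and the Fanconi pathway was called. Their medians were -0.10 and -0.02. Of the 20, 8 were lower and 1 was higher in every NU7441+Enza library than in every Enza library (9.55% and 10.4% of all genes). XRCC5 and XRCC6, the Ku subunits, had log2 fold changes of -0.14 ± 0.15 and -0.09 ± 0.16. The largest negative values in the repair lists, XRCC3 at -0.42 and FANCA at -0.40, rested on Enza 1, at 117 CPM for XRCC3 against 73.9 and 72.5 in the other Enza libraries. They became -0.16 and -0.17 without Enza 1 and CC-115+Enza 1. TELO2, which stabilises the PI3K-like kinases, showed the same: 117 CPM in Enza 1, 48.7 and 46.4 in Enza 2 and 3, and 43.0 to 49.1 in NU7441+Enza, with a log2 fold change of -0.63 that became -0.06. ATM, the kinase that signals DNA breaks, was at 96.7, 122 and 129 CPM against 140, 147 and 144 CPM (log2 fold change 0.31 ± 0.11, adjusted p = 0.186). Enza 1 was the lowest library for ATM, and without it the log2 fold change was 0.19.

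No androgen response gene passed the test when NU7441 was added. The list held 29 genes, all tested, with a median log2 fold change of 0.12. Enzalutamide alone against Ctrl, which shares the Enza libraries, called 26 of the 29 lower (median -1.53; 6.75% of all genes were called lower and 16.1% in either direction there). KLK3 was at 694, 643 and 579 CPM in Enza and 583, 627 and 596 CPM in NU7441+Enza, so the groups overlapped (log2 fold change -0.09 ± 0.11, adjusted p = 0.764, and -0.03 without Enza 1). Without enzalutamide KLK3 stood at 1847 to 2009 CPM in Ctrl and 2180 to 2441 CPM in NU7441. KLK2, the neighbouring kallikrein, was at 178, 141 and 125 CPM against 104, 113 and 111 CPM. The groups did not overlap, but the log2 fold change of -0.44 ± 0.12 was not called (adjusted p = 0.121). Enza 1 was its highest library, and the value was -0.28 without Enza 1 and CC-115+Enza 1. Across the list 10 members were higher in every NU7441+Enza library and 3 lower, beside 10.4% and 9.55% of all genes. Without Enza 1 and CC-115+Enza 1, 4 members rose and 1 fell, beside 1.83% and 0.762% of all genes.

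Of the 11 androgen-repressed genes tested, ST6GAL1 rose and UGT2B11 fell, beside 0.223% and 0.157% of all genes. UGT2B11 was not called without NU7441+Enza 1 or 2, and ST6GAL1 was not called without Enza 1 or without any 1 of the NU7441+Enza libraries. ST6GAL1, a sialyltransferase, was at 5.70, 6.76 and 6.22 CPM in Enza and 9.89, 8.90 and 8.89 CPM in NU7441+Enza (log2 fold change 0.57 ± 0.11, adjusted p = 0.0229). The members thus ran in both directions, from -1.57 to 0.57. Enzalutamide alone against Ctrl, which shares the Enza libraries, called 6 of the 11 higher and 2 lower. Of all 22860 genes, 2137 were called higher and 6.75% lower there. ST6GAL1 was among the lower ones (-0.37, adjusted p = 0.0274), and UGT2B11 was not called (0.08, adjusted p = 0.772). In NU7441+Enza against Enza, none of the 19 genes of androgen synthesis and its partners and none of the 10 luminal markers was called. The luminal keratins KRT8 and KRT18 had log2 fold changes of -0.16 ± 0.13 and -0.21 ± 0.16, and HOXB13 had -0.05 ± 0.12.

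Most cell cycle genes had negative values, and none was called. Of 32 genes of mitosis and G2/M, 28 had negative values, with a median of -0.18, and 13 were lower in every NU7441+Enza library (9.55% of all genes). PLK1, a mitotic kinase, was at 100.2, 76.7 and 75.6 CPM in Enza and 54.0, 53.4 and 53.7 CPM in NU7441+Enza (log2 fold change -0.65 ± 0.17, adjusted p = 0.1005). CDC20, the activator of the anaphase-promoting complex, was at 205, 166 and 157 CPM against 123, 122 and 123 CPM (log2 fold change -0.52 ± 0.16, adjusted p = 0.144). For both, the 3 combination libraries were nearly equal and all below the Enza libraries. Of 35 genes of DNA replication and the G1/S transition, 30 were negative (median -0.19) and 18 lower in every combination library. MCM2, a subunit of the replicative helicase, was at 627, 362 and 338 CPM against 306, 310 and 328 CPM, and its log2 fold change of -0.49 became -0.15 without Enza 1 and CC-115+Enza 1. E2F2, a cell cycle transcription factor, was steadier at 38.4, 29.5 and 28.3 CPM against 22.6, 22.7 and 22.8 CPM (-0.50, and -0.35 without those libraries). Among 12 replication-dependent histone genes 0 were called (median -0.14), with H1-4 and H1-5 highest in Enza 1. Their log2 fold changes of -0.49 and -0.53 became -0.10 and -0.20 without Enza 1 and CC-115+Enza 1. In the fit to the 5 libraries without Enza 1, 24 mitosis genes and 10 replication genes fell and 0 rose, beside 3.47% of all genes that fell. The medians of the lists were then -0.24 and -0.14.

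In lipid synthesis 1 gene was called (0.223% of all genes rose), and most other members had positive values. SCD, the desaturase that makes monounsaturated fatty acids, was the 1 gene called of 14 in fatty acid synthesis. It was at 274, 376 and 366 CPM in Enza and 496, 496 and 460 CPM in NU7441+Enza (log2 fold change 0.52 ± 0.11, adjusted p = 0.0408). FASN, the fatty acid synthase, was not called (-0.18 ± 0.19). None of 24 sterol synthesis genes was called, with a median of 0.14, and 10 were higher in every NU7441+Enza library (10.4% of all genes). INSIG1, which retains the sterol sensor in the endoplasmic reticulum, was at 353, 321 and 292 CPM against 487, 450 and 465 CPM (0.54 ± 0.14, adjusted p = 0.0855). TM7SF2, a sterol reductase, was at 88.4, 74.1 and 69.5 CPM against 121, 109 and 115 CPM (0.57 ± 0.15, adjusted p = 0.0922). CYP51A1, the lanosterol demethylase, had the largest negative value of the list, -0.68, from 60.7 CPM in Enza 1 beside 21.9 and 19.2 in Enza 2 and 3, and it turned to 0.04 without Enza 1. Without Enza 1 and CC-115+Enza 1, 8 sterol genes rose and 0 fell (1.83% of all genes rose), and in the fit to the other 5 libraries of the 2 groups 14 rose (4.85% of all genes).

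In the lists of growth and energy metabolism 1 gene was called (0.223% of all genes rose). KLHL24 was the 1 called of 16 FOXO targets and feedback genes (median 0.15), and IRS2, an insulin receptor substrate, had 0.42 ± 0.20. None was called among 20 genes of MYC and ribosome biogenesis, although 19 were negative (median -0.26). Of these 20, 9 were lower and 1 was higher in every NU7441+Enza library (9.55% and 10.4% of all genes). RRP9 and RRS1, ribosome assembly factors, had the largest values there, -0.56 and -0.52, and these became -0.12 and -0.20 without Enza 1 and CC-115+Enza 1. MYC itself had 0.14 ± 0.10. None was called among 21 genes of glycolysis and hypoxia, 18 of nuclear oxidative phosphorylation and 22 of lysosome and autophagy, with medians of -0.19, 0.03 and 0.01. HK2, a hexokinase, had -0.44 ± 0.12 and ALDOC, an aldolase, 0.52 ± 0.15 (adjusted p = 0.0949 and 0.121). HK2 became -0.24 without Enza 1 and CC-115+Enza 1.

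Single members were called in several signalling lists, where 0.223% of all genes rose and 0.157% fell. Of 22 p53 targets TP53INP1 rose and SESN2 fell, while CDKN1A and MDM2 had -0.27 ± 0.11 and 0.03 ± 0.09. Of 14 smooth muscle and SRF targets ACTA2 fell, and 12 of the 14 were negative (median -0.27). Of 24 Wnt genes WNT5A, a non-canonical Wnt ligand, fell from 26.8, 25.3 and 28.8 CPM to 17.4, 20.0 and 18.2 CPM (-0.54 ± 0.12, adjusted p = 0.0463). Of 27 interferon response genes GBP1, a guanylate-binding GTPase, fell from 2.75, 2.71 and 2.18 CPM to 1.34, 1.34 and 1.22 CPM (-0.97 ± 0.22, adjusted p = 0.0446). WNT5A and GBP1 showed no overlap between the groups, whereas the medians of their lists were -0.15 and -0.05. None was called among 16 genes of the epithelial-mesenchymal transition, 10 of NF-kB, 11 PI3K-like kinases and their partners, or the tested basal (2), neuroendocrine (4) and stromal, immune and endothelial (6) markers. COL1A1, a fibrillar collagen gene in the last of these lists, was at 9.57 CPM in Enza 1, 3.08 and 3.73 in Enza 2 and 3, and 2.51 to 3.54 in NU7441+Enza. Its log2 fold change of -0.83 became -0.15 without Enza 1 and CC-115+Enza 1. The part of Enza 1 in the results was measured only by leaving it out, and what sets it apart was not tested.

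**Figure D3:**
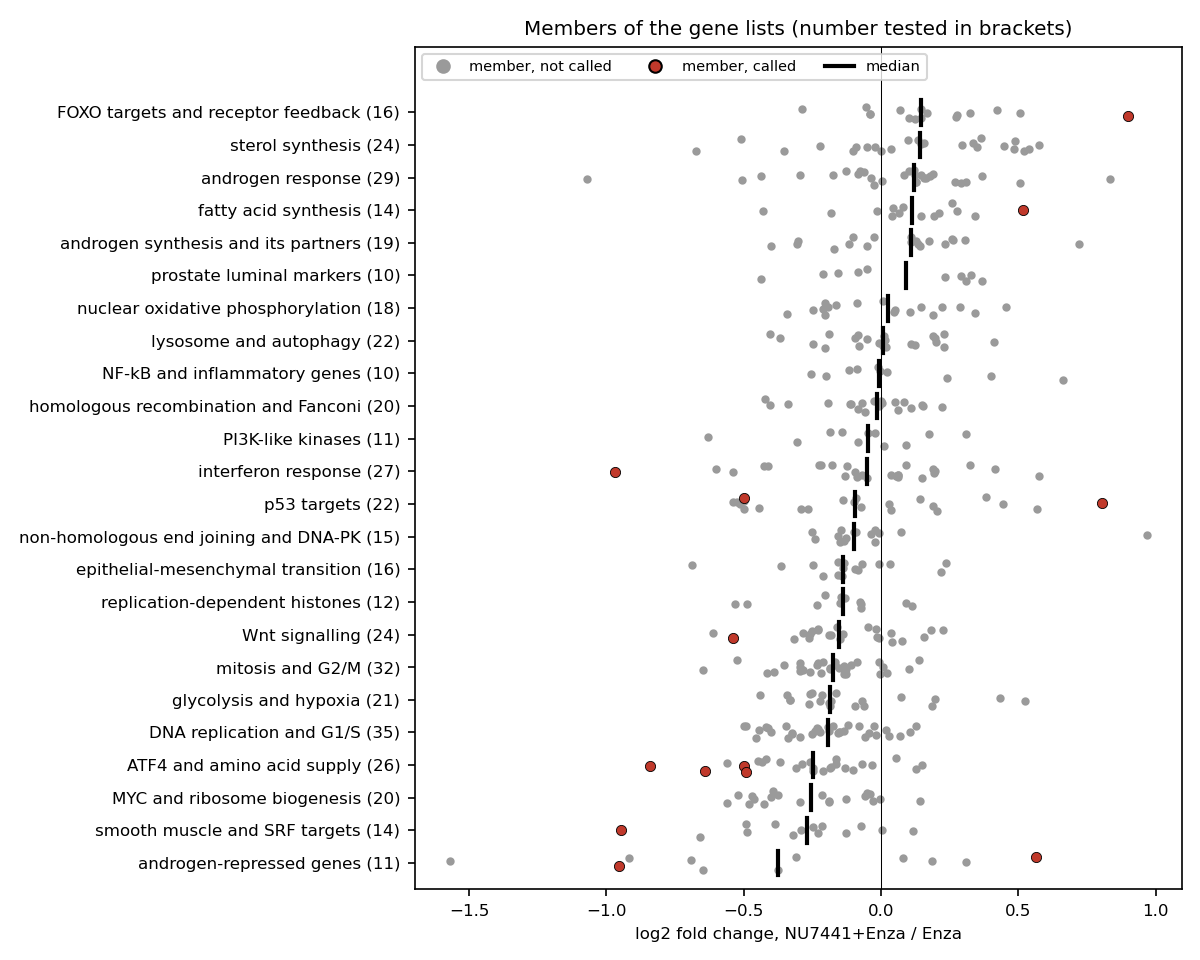
Log2 fold change of NU7441+Enza over Enza for the members of the gene lists described here with at least 10 members tested (1 point per gene, number tested in brackets, black bar for the median). Called members are red, and the ATF4 list has the most, 4 to the left of 0 and 0 to the right.

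The 87 genes were then read in the libraries without enzalutamide, which share none with the comparison above. There NU7441 against Ctrl called 776 genes (3.39%), 522 (2.28%) higher and 254 (1.11%) lower. All 51 genes that rose and all 36 that fell with NU7441 on top of enzalutamide had the same sign in NU7441 against Ctrl, where 59.11% of all tested genes had the same sign in both. Of the 87, 54 were called there in the same direction (37 higher and 17 lower), which is 62.07% of the 87 and 6.96% of the 776. In the other direction, 718 of the 776 (92.53%) kept their sign in NU7441+Enza against Enza. Across all 22860 genes the 2 sets of log2 fold changes had a Pearson correlation of 0.277, and 0.427 over the 13333 genes with an average log2 CPM of at least 1. Genes are not independent replicates, so this is a description. The count in NU7441 against Ctrl was 76 (0.321%) in place of 776 without NU7441 2, and 162, 254 and 361 without Ctrl 1, 2 and 3.

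**Figure D4:**
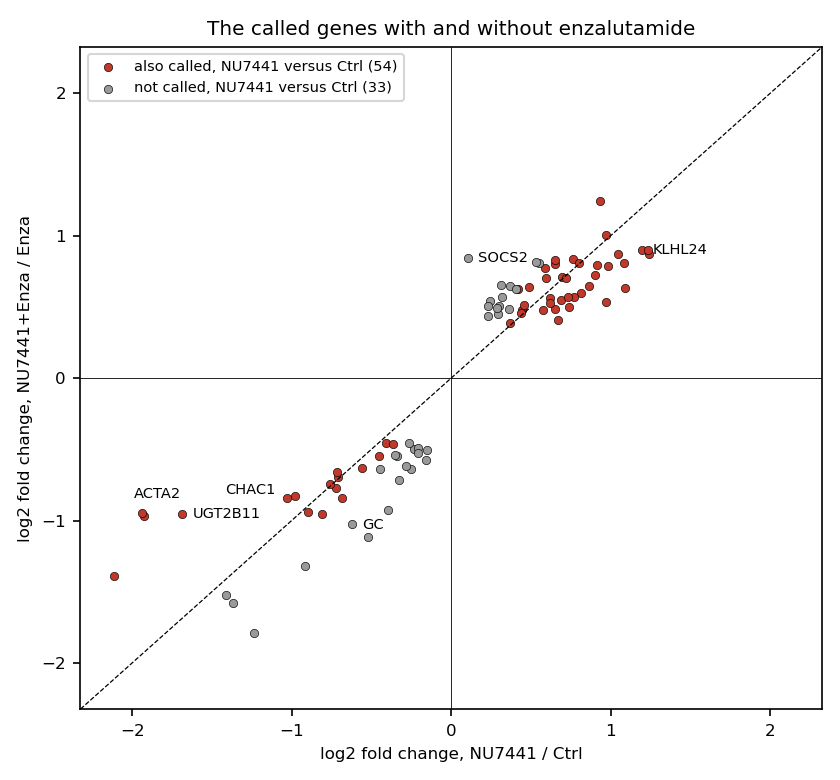
Log2 fold change of the 87 called genes in NU7441+Enza over Enza (vertical axis) against that in NU7441 over Ctrl (horizontal axis), with equal changes on the dashed line. All points lie in the lower left or upper right part, and the 54 red points were called in both.

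No gene's response to NU7441 differed with enzalutamide past the threshold. The interaction, which tests the difference between the 2 log2 fold changes, called 0 of 22860 genes (0%) in edgeR and 0 in DESeq2, with 1548 genes (6.77%) at an unadjusted p under 0.05 in edgeR and a smallest adjusted p of 0.692. Among the named genes, ACTA2 and SOCS2 had the smallest unadjusted p. Most named genes were picked by their change in NU7441+Enza against Enza, which is 1 part of this difference. Their unadjusted p-values are therefore not a separate test. ACTA2 was at 4.24, 4.04 and 4.23 CPM in Ctrl and 1.11, 0.93 and 1.22 CPM in NU7441, a log2 fold change of -1.94 there against -0.95 with enzalutamide. The difference was 0.99 (unadjusted p = 0.000178). GBP1 and UGT2B11 had the same form, with log2 fold changes of -1.93 and -1.68 without enzalutamide and differences of 0.96 and 0.73 (unadjusted p = 0.00502 and 0.00636). SOCS2 had the reverse form: it was at 14.9 to 18.5 CPM in Ctrl and 16.4 to 18.5 CPM in NU7441 (log2 fold change 0.10), and its difference was 0.74 (unadjusted p = 0.000143). Its level in Enza was 2.04 log2 units below Ctrl, and NU7441+Enza lay between the Enza and Ctrl libraries. CHAC1, CLU, ABCG1 and TP53INP1 changed by about the same amount in both settings, with differences of 0.19, 0.01, 0.01 and 0.01.

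Among the lists with at least 10 members tested, the median difference was largest for mitosis. NU7441 without enzalutamide called 20 of the 32 lower (1.11% of all genes) with a median of -0.61, against 0 called and a median of -0.18 with enzalutamide. The difference was positive for all 32 genes (median 0.48) and was called for none. NU7441 2 was the lowest library for these genes, for example 24.3 CPM for PLK1 against 50.6 and 49.4 in NU7441 1 and 3 and 68.6 to 78.5 in Ctrl. Without NU7441 2 the test of NU7441 against Ctrl called 0 of the 32 (0.114% of all genes fell), the median was -0.43 and the median difference 0.27. It called 3, 9 and 10 of them without Ctrl 1, 2 and 3 (0.259%, 0.465% and 0.721% of all genes fell), and 1 in a fit to the 6 libraries of those groups (7.58%). In the androgen response list, 5 members rose and 1 fell of 29 with NU7441 alone (median 0.09), beside 2.28% and 1.11% of all genes. The members that rose were 1 without NU7441 2 (0.207% of all genes) or Ctrl 1 (0.428%), 2 without Ctrl 2 (0.608%), 3 without Ctrl 3 (0.81%) and 12 without Enza 1 and CC-115+Enza 1 (10.4%). None of the list's differences was called, except without Enza 1 and CC-115+Enza 1 that of KCNN2, a potassium channel gene (-0.45, adjusted p = 0.0439; 0.00866% of all genes were called lower there). TMPRSS2, an androgen-driven protease gene, was one of those that rose without enzalutamide (0.80, adjusted p = 0.00028), and it had 0.29 ± 0.11 with it (adjusted p = 0.219).

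**Figure D5:**
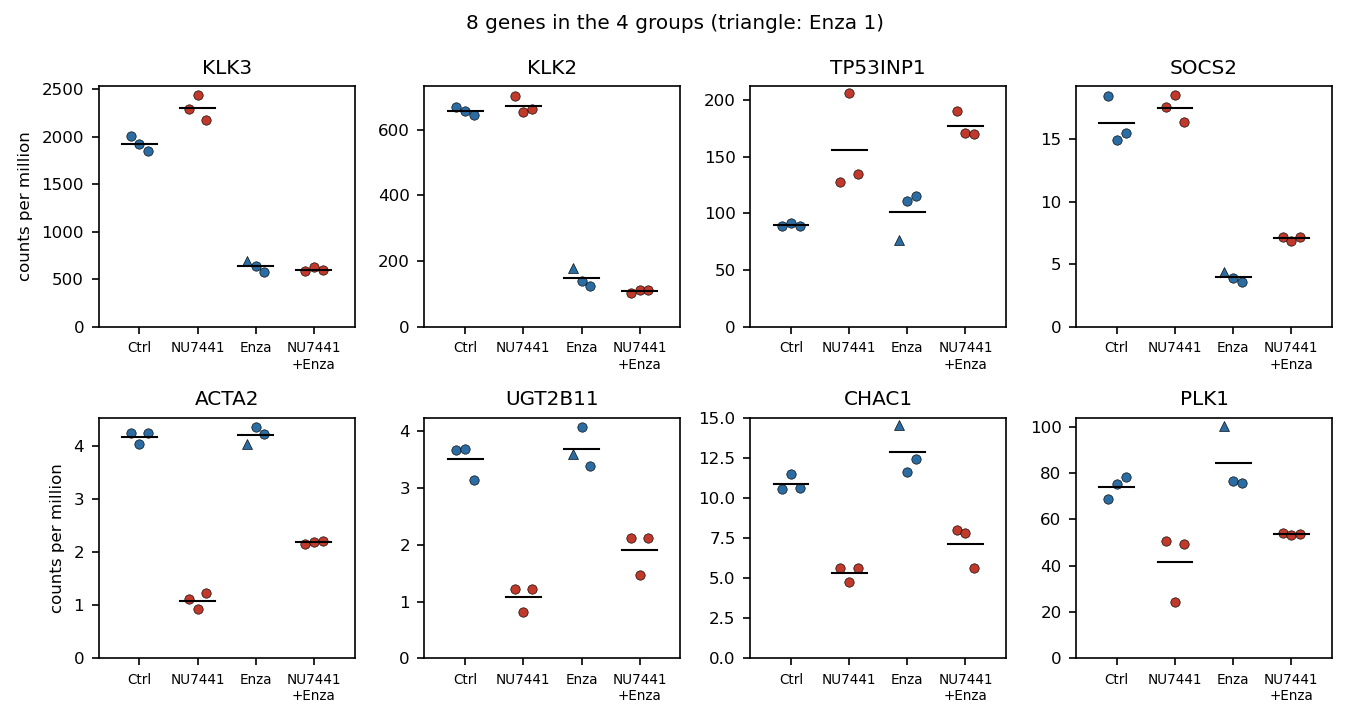
CPM of 8 genes in the 3 libraries each of Ctrl, NU7441, Enza and NU7441+Enza (points, Enza 1 as a triangle, bars for group means, axes from 0). KLK3 and KLK2 separate by enzalutamide, CHAC1 separates by NU7441, and ACTA2 and UGT2B11 lie lowest in NU7441 alone.

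The same Enza libraries serve as the reference for the other 2 inhibitors combined with enzalutamide at 1 µM for 24 h, CC-223 and CC-115. The values are therefore set side by side without a comparison, and the differences between compounds were not tested here. KLHL24 had log2 fold changes of 0.90 ± 0.19 with NU7441, 2.03 ± 0.19 with CC-223 and 2.76 ± 0.20 with CC-115. KLK3 had -0.09 ± 0.11, 0.82 ± 0.11 and 1.05 ± 0.11 in the same order. CHAC1 had -0.84 ± 0.15, -1.70 ± 0.16 and -1.64 ± 0.15, and ACTA2 had -0.95 ± 0.15, -0.81 ± 0.15 and -2.69 ± 0.17.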

How the data were processed

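RNA was measured by a stranded total RNA kit with ribosomal RNA removed, per the labels. The values are raw counts per Ensembl feature as the authors deposited them. The submitters' processing notes name featureCounts 1.5.0-p3, STAR 2.5.2a, DESeq2 1.14.1 and the build hg19. How strand and multi-mapping reads were handled in counting, and the annotation, are not given in these sources. All 24 C4-2 libraries were fitted together, 1 coefficient per group, after filterByExpr (22860 of 63677 features kept) and TMM scaling. The test was edgeR's quasi-likelihood test (R 4.3.3, limma 3.58.1, edgeR 4.0.16). Benjamini-Hochberg adjustment ran over every gene tested, separately for each comparison, with 0.05 as the threshold for a call. Standard errors are the size of the log2 fold change over the square root of the F statistic. CPM was computed per TMM-scaled library. Scripts used Python 3.11.15, pandas 2.3.3, numpy 2.4.6 and matplotlib 3.10.9, and the fit was tested on simulated data.

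The 28 gene lists (540 of 552 genes matched an identifier) and the comparison were chosen with earlier results of these data known. The named genes are PRKDC, MTOR and KLK3, and the 12 largest rises and 12 largest falls among called protein-coding genes with an average log2 CPM of at least 1 and libraries that do not overlap. To these were added the 4 largest called genes each way of the interaction (there were 0) and, per list, up to 4 called members or, where none was called, the 2 largest values. Other list members, named for their known roles, were chosen after their values were seen. Lists were given no test. Promoters came from the RefSeq table of GRCh38.p14, in which all 4 called ATF4 targets matched. Alternatives were other scaling (median of ratios), DESeq2 1.42.0, other filters, fewer libraries, single libraries left out, the replicate number as a block, and removal of small and mitochondrial RNA. 22Rv1 libraries were not used here, and a few genes and 1 list are not reported here.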

Additional observations from a re-analysis of the deposited data

How the results depend on the processing

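The count of genes called in NU7441+Enza against Enza, 87 in the fit reported, was 59 with median-of-ratios scaling, 341 with DESeq2 (80 of the 87 among them), 619 with no filter (26.2% of them higher, against 58.6%), 231 with a stricter filter and 0 with only the 6 libraries. It was 598 without Enza 1 and CC-115+Enza 1 (70.6% higher) and 102 with small and mitochondrial RNA removed. Leaving out 1 library gave 0 to 1173. The fit to the 5 libraries without Enza 1, chosen after seeing the data, called 1714. The setting without Enza 1 and CC-115+Enza 1 also rests on the data, since both libraries stood apart from their groups. NU7441 against Ctrl, with 776 calls (67.3% higher), gave 1182 with DESeq2 (52.2% higher), 1334 with a stricter filter (56.2%), 2706 with only those libraries (45.2%) and 5011 without Enza 1 and CC-115+Enza 1 (48%), and 76 to 813 with 1 library left out. The interaction, with 0 calls, gave 23 with no filter, 3 without Enza 1 and CC-115+Enza 1 and 0 in the other settings. Enzalutamide against Ctrl, with 3679 calls (58.1% higher), gave 4088 with DESeq2 (46.8% higher), 1053 with only those libraries and 1808 to 4998 with 1 library left out.

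Nothing in the labels says what a shared replicate number stands for. The deviations of NU7441+Enza and Enza libraries with the same number had correlations of -0.02, 0.06 and -0.14, and other pairs -0.18 to 0.20. For NU7441 and Ctrl the values were 0.09, 0.01 and 0.08, and other pairs had -0.09 to 0.004. For Enza and Ctrl the same-number values were -0.02, -0.03 and 0.09. With the replicate number as a block, 43 genes were called in NU7441+Enza against Enza, 571 in NU7441 against Ctrl, 3165 in enzalutamide against Ctrl and 0 in the interaction.

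Over the 74 named genes and all settings, 858 of 1089 values kept their direction and their side of the threshold and 10 reversed, all in genes that were not called. In 143 values a called gene lost its call, and in 66 a gene that was not called gained one. The other 12 had no adjusted p. CYP51A1 was 0.044 without Enza 1 and CC-115+Enza 1, 0.0403 in the 5 libraries and -0.979 to 0.0389 with 1 library left out. KRT14 was 1.02 without that pair and -1.10 to 1.01 with 1 library left out. ITGB4 was 0.228 without the pair, 0.226 in the 5 libraries and -0.176 to 0.221 with 1 library left out. PRKDC ranged from -0.0845 to 3e-04. The cause of these shifts was not tested. With 3 libraries a group, the spread between libraries, and for genes under about 1 CPM their read number, limits which differences can be called.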

Other observations

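Several called genes with low average counts, or outside the named rule, were picked after their values were seen and are given as values. Among the larger falls were a pair of genes best known from liver. ALB, serum albumin, was at 2.24, 2.11 and 1.76 CPM in Enza and 0.926, 0.748 and 0.764 CPM in NU7441+Enza (log2 fold change -1.32 ± 0.24, adjusted p = 0.0127). CYP7A1, the rate-limiting enzyme of bile acid synthesis, was at 2.24, 2.34 and 2.83 CPM against 0.974, 0.855 and 0.736 CPM (-1.52 ± 0.25, adjusted p = 0.00602). Its level in the Ctrl libraries was 0.0946 to 0.195 CPM, and enzalutamide alone against Ctrl, which shares the Enza libraries, gave a log2 fold change of 3.94. COL2A1, a cartilage collagen, had the largest fall of all called genes (-1.79 ± 0.36), with 65 reads in Enza 1 and 31 and 17 in Enza 2 and 3. KRT80, a keratin, was at 4.14, 2.57 and 2.97 CPM against 1.22, 1.07 and 1.39 CPM (-1.39 ± 0.23, adjusted p = 0.00658).

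Further falls were in the transcription factors NR2F1 (-0.63), HOXC8 (-0.83) and ATF5 (-0.55), in the small heat shock protein HSPB8 (-0.94), in the peptide hormone ADM2 (-0.57) and in the matrix protein THBS1 (-0.47). Further rises were in ABAT, the GABA transaminase, from 15, 15.2 and 14.1 CPM to 24.9, 24.1 and 24.3 CPM (0.73 ± 0.11, adjusted p = 0.00602), in TFRC, the transferrin receptor (0.45), in the antiproliferative gene BTG1 (0.65), in the polo-like kinase PLK2 (0.54) and in the transporters SLC22A3 (0.40), SLC13A3 (0.54) and SLC25A27 (0.50). The genes that rose by at least 2-fold were ZFP2, a zinc-finger gene (1.00 ± 0.23), and the non-coding ENSG00000259976 (1.24 ± 0.24). BTG1 was at 43.1 CPM in Enza 1 beside 75.4 and 72.8 in Enza 2 and 3, and at 95.9 to 107 CPM in NU7441+Enza. Of the 87 called genes 10 were not typed as protein-coding. Among these LINC00639 fell (-1.58 ± 0.34) and CCDC18-AS1 and TMCC1-DT rose (0.64 and 0.77). TPM1-AS fell (-1.12 ± 0.20), while TPM1, which it overlaps, had -0.23 and was not called.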
